A study of Mus musculus with 1248 samples.

Results

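The genes described here code for the chains of integrins and laminins in single wells of the mouse mammary carcinoma lines 4T1 and 4T1.2 and of the host cells sorted with them. Members were chosen by symbol alone, as every integrin alpha chain, integrin beta chain and laminin alpha, beta or gamma chain in the count table. This gave 37 of 40756 genes: 18 integrin alpha chains, 8 integrin beta chains and 11 laminin chains. Of these, 27 reached 10 CPM, the gene's counts scaled to the total of all gene counts, in the summed tumour or host wells of at least 1 group, 23 in tumour wells and 17 in host wells.

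Integrins are receptors made of 1 alpha and 1 beta chain that hold a cell to matrix or to other cells. Laminins are trimers of an alpha, a beta and a gamma chain, and they form the sheet of the basement membrane under epithelium. Itga6 with Itgb4 is the laminin receptor of the hemidesmosome, the rivet that ties keratin filaments of epithelial cells to the epithelial laminin that holds Lama3 and Lamb3, while Itgb2 and Itgb7 pair with alpha chains of leukocytes. Epithelial tumours are known to keep, lose or redistribute these pairs as they leave the primary site.

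Cells came from 7 groups: 4T1 culture, 4T1 from bone of the hindlimbs at day 4, 10 or 16, 4T1 from a mammary fat pad tumour at day 22, 4T1.2 culture, and 4T1.2 from bone at day 4. Both lines carried firefly luciferase and mCherry, including the cultured cells, so every group shares the reporters. Cells reached bone by intracardiac injection into female BALB/c mice, and the wells analysed had been sorted for mCherry and kept when their mCherry qPCR Ct was not above 30. 4T1.2 is known as a clonal subline of 4T1 that spreads to bone, so that line is 1 clone. The labels name no animal, plate or culture for any cell. Each group was therefore treated as 1 sample and no difference was tested. Intervals are 95% counting intervals that leave out the spread between animals, and those of CPM also leave out the spread between wells.

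Of 1248 wells, 1218 passed the filter, and each was called tumour or host by whether its keratin pair Krt8 and Krt18 exceeded its leukocyte set Ptprc, Coro1a, Laptm5 and Rac2 in summed CPM. This gave 501 tumour and 717 host wells. For 4T1 there were 54 tumour wells from culture, 137, 54 and 71 from bone at day 4, 10 and 16, and 85 from the fat pad. For 4T1.2 there were 53 from culture and 47 from bone. Median depth in tumour wells lay between 2981083 and 3346557 gene counts in all 7 groups. A well was mixed where its larger marker sum was under 10 times the smaller. Mixed wells made up 52 tumour wells, and 25 of them belonged to the 47 of 4T1.2 bone at day 4. No doublet caller was run. A single day 16 tumour well held 34104356 of the 232213235 counts of its group.

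In tumour wells the beta chain shared by most matrix integrins led the set. Set per kilobase of exon, so that genes can be ranked, Itgb1 led in all 5 groups of 4T1, from 195 CPM per kilobase at day 16 to 253 in culture. Itga3, the laminin-binding partner of Itgb1, came next in each of them, from 71.4 at day 10 to 89.5 at day 4. In 4T1.2 culture the order was turned, with Itga3 at 115 and Itgb1 at 105 CPM per kilobase. With all wells it was also turned in 4T1.2 bone, at 102 and 97.5. Without mixed wells Itga3 was 608 and Itgb1 464 CPM there, over 5.71 and 4.08 kilobases of exon. Per kilobase Itgb1 was then the higher of the pair. Next in 4T1.2 culture came Itgb7 at 33.7 CPM per kilobase, and next in 4T1 bone at day 4 and day 10 came Itga5, at 27.7 and 69.2.

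**Figure D1:**
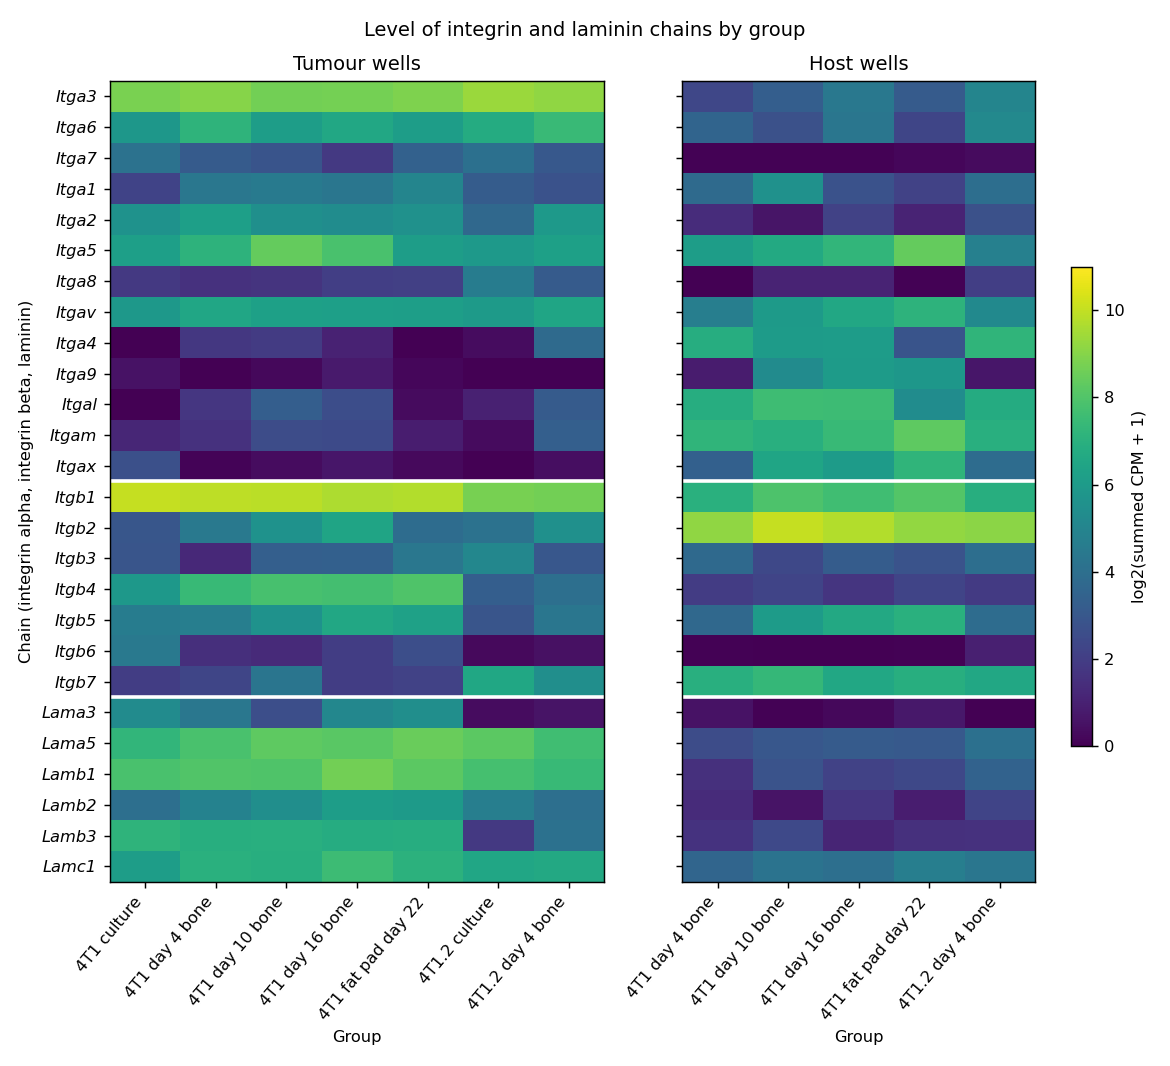
Summed level of 26 chains that reached 10 CPM, as log2 of CPM + 1 on a colour scale, with groups across and chains down, tumour wells at left and host wells at right. Itgb4, Lama3 and Lamb3 are lower in the 2 groups of 4T1.2 than in the 5 groups of 4T1 tumour wells. Among the 4T1 groups Lama3 is lowest at day 10, at 5.17 CPM.

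Itgb4, Lama3 and Lamb3, chains of the hemidesmosomal receptor and its laminin, were lower in 4T1.2 than in 4T1 in culture and in bone at day 4. Itgb4, the beta chain that binds keratin linkers inside the cell, stood at 57.1, 168, 221, 208 and 247 CPM in the 4T1 groups, taken in the order culture, bone at day 4, 10 and 16, and fat pad. It stood at 8.74 CPM (interval 8.31 to 9.19) in 4T1.2 culture and 15.1 CPM (14.5 to 15.8) in 4T1.2 bone. The lowest 4T1 group was thus above the highest 4T1.2 group, although single wells overlapped. Wells of 4T1 bone at day 4 ran from 0.656 over a median of 139 to 749 CPM, and those of 4T1.2 bone from 0 over a median of 0.272 to 259 CPM. After thinning each well to 500000 counts, Itgb4 was at 10 CPM or more in 97.0% of 4T1 wells at day 4 (exact binomial interval 92.6 to 99.2) and in 26.1% of 4T1.2 wells (14.3 to 41.1). Its fold lower in 4T1.2 was 6.53 in culture and 11.1 in bone, and without mixed wells the bone levels were 26.6 against 174 CPM. In that bone group a single well held 38.3% of the Itgb4 reads.

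Lamb3, the beta chain of the epithelial laminin, showed the same split. In the same order of 4T1 groups it stood at 142, 118, 120.4, 110.0 and 113 CPM, against 2.55 CPM (2.32 to 2.8) in 4T1.2 culture and 16.4 CPM (15.8 to 17.1) in 4T1.2 bone. The summed level in 4T1 differed by less than 2-fold between sites, while the median well was 133 CPM in culture and 59.8, 37.0 and 7.42 CPM in bone at the 3 times. After thinning, the share of wells that held it was 86.8% in culture (74.7 to 94.5), 73.3% at day 4 (65.0 to 80.6) and 50.7% at day 16 (38.4 to 63.0). In 4T1.2 bone 32.6% of wells held it, and in 4T1.2 culture 9.43% (3.13 to 20.7).

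Lama3, the alpha chain that Itgb4-bearing receptors bind, was lower in 4T1.2 as well, at 0.284 CPM (0.211 to 0.374) in culture and 0.511 CPM (0.399 to 0.645) in bone. In the 4T1 groups it stood at 38.3, 19.3, 5.17, 33.1 and 42.5 CPM. No well of either 4T1.2 group reached 10 CPM of Lama3 after thinning, 0 of 53 in culture (upper bound 6.72%) and 0 of 46 in bone (upper bound 7.71%).

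**Figure D2:**
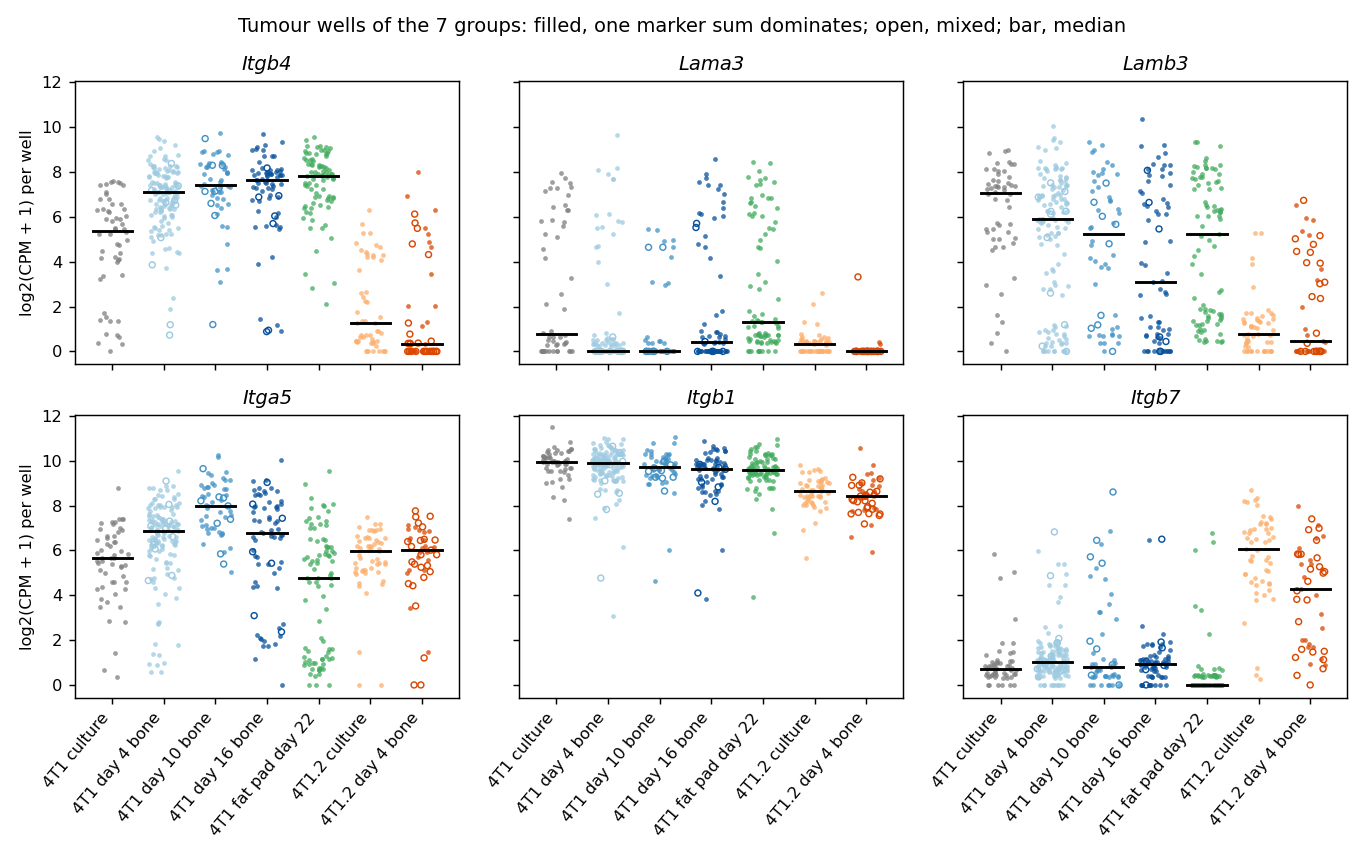
Each point is a tumour well, in log2 of CPM + 1, for 6 chains and the 7 groups, with mixed wells open and the median as a bar. Most wells of 4T1.2 lie low for Itgb4, Lama3 and Lamb3, and many lie high for Itgb7. In 4T1.2 bone 15 of 47 wells held neither Itgb4 nor Itgb7 at 10 CPM. Lama3 in 4T1 has many wells near 0 and fewer high wells.

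Itgb7, a beta chain known from lymphocytes that home to the gut, went the other way. It stood at 2.99 (2.73 to 3.27), 3.91, 18.1, 2.95 and 3.54 CPM in the 4T1 groups, and at 93.3 CPM (91.9 to 94.8) in 4T1.2 culture and 41.7 CPM (40.6 to 42.8) in 4T1.2 bone. In 4T1.2 culture wells ran from 0.185 over a median of 65.3 to 412 CPM and 90.6% of them held it (79.3 to 96.9), against 5.66% in 4T1 culture (1.18 to 15.7). Without mixed wells, Itgb7 in bone at day 4 was 46.0 CPM in 4T1.2 and 3.09 CPM in 4T1, so its level in 4T1.2 was no lower without them. At day 10 of 4T1 a single well held 41.9% of the Itgb7 reads and the level without mixed wells was 7.73 CPM. Its alpha partners stayed low in culture, with Itga4 at 0.307 CPM in 4T1.2 and no read in 4T1, and Itgae at or under 1.28 CPM in every group.

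Itgb1 was also lower in 4T1.2, at 427 CPM in culture and 398 in bone, against 1033, 967, 916, 796 and 860.0 CPM in the 4T1 groups in the order above. All wells but 1 held at least 10 CPM in both lines, so the difference is one of level and not of share. The median well was 997 CPM in 4T1 culture and 402 in 4T1.2 culture. The fold was 2.42 in culture and 2.43 in bone, and without mixed wells the bone levels were 464 against 976 CPM.

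The alpha chains that bind laminin or collagen split the lines less. Itga3 stood at 444, 511, 408, 416 and 465 CPM in the 4T1 groups and at 656 and 579.6 CPM in 4T1.2 culture and bone. Its median well was 484 CPM in 4T1 bone at day 4 and 515 CPM in 4T1.2 bone, and single wells ran from 1.31 to 1443 and from 84.2 to 1191 CPM, so the wells of both lines overlap over nearly their whole range. Itga6, partner of Itgb4 and Itgb1, stood at 55.7, 143, 69.1, 96.1 and 69.1 CPM in the 4T1 groups and at 108 and 174 CPM in 4T1.2. It was therefore present in the line that was low in Itgb4. Itga2 stood at 47.9, 72.3, 43.1, 39.2 and 46.7 CPM in the 4T1 groups, where its median well was 60.9 CPM at day 4, 1.1 CPM at day 16 and 1.41 CPM in the fat pad. Most wells thus held it at day 4 and a smaller share of wells at day 16 and in the fat pad, where the sum was also lower. Itgav, the alpha chain of vitronectin receptors, lay between 57.2 and 89.0 CPM in all 7 groups.

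The chains of the other laminins were carried by both lines. Lama5 stood at 151, 230.4, 311, 293 and 353 CPM in the 4T1 groups and at 299.5 and 195 CPM in 4T1.2. Lamb1, the common beta chain, stood at 228, 258, 252, 408 and 302 CPM in 4T1 and at 215 and 169 CPM in 4T1.2, and Lamc1, the common gamma chain, at 68.6, 127, 119, 188 and 135 CPM and at 89.8 and 97.5 CPM. A single day 16 well held 32.7% of the Lamc1 reads there, and without it the level was 148 CPM. None of the 3 was 2-fold apart between the lines on the main scale.

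Itgb4 lies on chromosome 11 (115974709 to 116008412), Itgb7 on chromosome 15 (102215995 to 102231944), Itgb1 on chromosome 8 (128685654 to 128733200) and Lamb3 on chromosome 1 (193207699 to 193343878), all in GENCODE M21 on GRCm38. The 250 bases before the annotated RefSeq starts (GRCm38.p6) are shown for Lamb3, Itgb7 and Itgb1. These stood at least 2-fold apart between the lines both in culture and in bone. Lama3 and Itgb4 did so too, but no window of either was examined, so nothing is said of their motifs. Capitals mark a GC box (GGGCGG or CCGCCC) or an E-box bound by zinc finger repressors of epithelial genes (CACCTG or CAGGTG). Lamb3 has 2 starts, at chr1:193301744-193301993 and chr1:193301993-193302242 on the plus strand, and both windows lie inside the longer GENCODE gene and share 1 base. Itgb7 is at chr15:102231936-102232185 on the minus strand and Itgb1 at chr8:128685404-128685653 on the plus strand.
Lamb3 upstream start: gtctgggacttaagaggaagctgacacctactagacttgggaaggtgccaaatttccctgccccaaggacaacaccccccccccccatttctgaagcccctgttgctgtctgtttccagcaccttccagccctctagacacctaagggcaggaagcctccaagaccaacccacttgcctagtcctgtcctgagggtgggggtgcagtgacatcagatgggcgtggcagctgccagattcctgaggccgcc
Lamb3 downstream start: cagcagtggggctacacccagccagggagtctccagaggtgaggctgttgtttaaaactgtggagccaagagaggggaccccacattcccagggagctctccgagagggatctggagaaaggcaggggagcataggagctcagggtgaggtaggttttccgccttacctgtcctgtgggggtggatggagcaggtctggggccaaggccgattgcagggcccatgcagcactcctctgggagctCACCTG
Itgb7: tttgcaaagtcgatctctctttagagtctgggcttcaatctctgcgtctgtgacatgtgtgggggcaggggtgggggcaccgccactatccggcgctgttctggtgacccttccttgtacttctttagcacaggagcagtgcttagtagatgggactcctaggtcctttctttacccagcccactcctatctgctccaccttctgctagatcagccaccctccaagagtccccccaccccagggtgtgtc
Itgb1: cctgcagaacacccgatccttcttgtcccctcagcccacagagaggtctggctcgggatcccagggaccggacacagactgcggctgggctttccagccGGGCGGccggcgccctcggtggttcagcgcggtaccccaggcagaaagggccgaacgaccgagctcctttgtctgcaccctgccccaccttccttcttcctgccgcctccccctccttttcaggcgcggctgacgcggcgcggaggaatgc
The downstream Lamb3 window holds 1 E-box, whose first base lies 6 bases before the start, and no GC box. The Itgb1 window holds 1 GC box at 151 bases before the start, and the Itgb7 window holds neither motif. None of the 4 windows holds an AP-1 site (TGANTCA). Of 32851 promoter windows, 17.2% hold the E-box letters, 32.7% the GC box and 6.75% the AP-1 letters on either strand. Over the 26 windows examined, which belong to 23 members, 8 hold the E-box, 9 the GC box and 1, of Itgax, the AP-1 letters. The other members, Lama3 among them, are not in these counts. These are matches of letters, and no binding was measured.

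Lama3 and Lamb3 were counted together in each well at 10 CPM or more. Both were present in 21 of 54 wells of 4T1 culture, in 16 of 137, 7 of 54 and 18 of 71 wells of 4T1 bone at the 3 times, and in 27 of 85 of the fat pad. In 4T1 culture these were all 21 wells that held Lama3, while 46 wells held Lamb3. In 4T1.2 no well held both, of 53 in culture and 47 in bone, since none held Lama3 at that level, and 4 and 14 of them held Lamb3. The chains of a widespread basement membrane laminin, Lama5, Lamb1 and Lamc1, were all present in 53 of 54 wells of 4T1 culture, 131 of 137 at day 4, and in 52 of 53 and 45 of 47 wells of 4T1.2 from culture and bone.

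**Figure D3:**
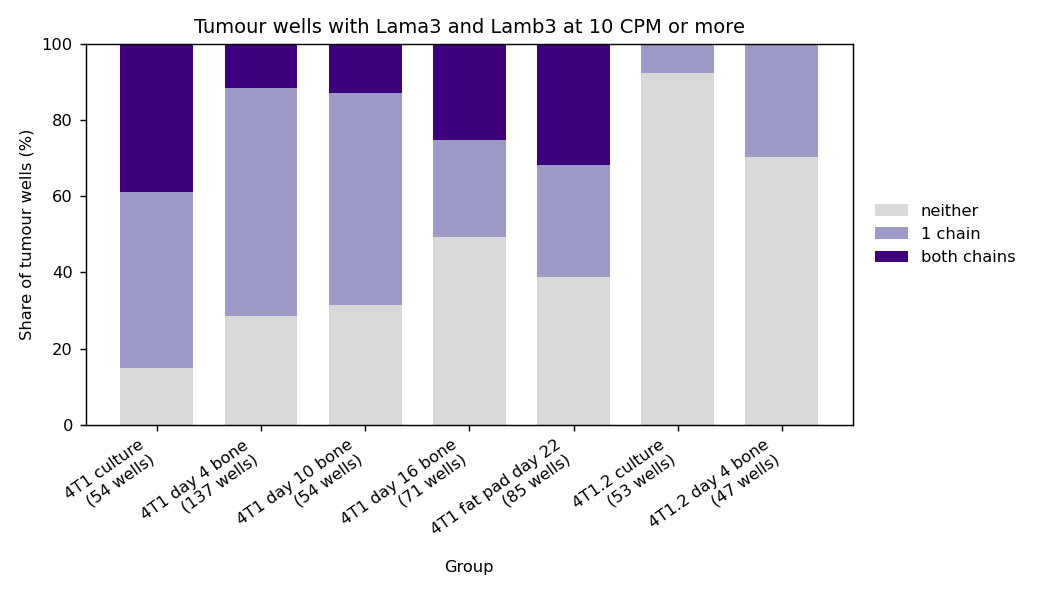
Stacked bars give the share of tumour wells in each group that hold neither, 1 or both of Lama3 and Lamb3 at 10 CPM or more. Both are found in 21 of 54 wells of 4T1 culture and in no well of either 4T1.2 group.

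Over the wells of a 4T1 group, those high in Lama3 tended to be high in Lamb3. Spearman's correlation was 0.74 over the 71 wells of day 16, 0.58 over the 85 of the fat pad and 0.51 over the 54 of culture. It was 0.40 over 54 wells at day 10 and weak, at 0.13, over 137 wells at day 4. For Itga6 with Itgb4, the 2 chains of the hemidesmosomal receptor, it lay between -0.13 and 0.19 in all 7 groups. These are descriptions over wells of 1 group, which differ in depth. The correlation of Lama3 and of Lamb3 with well depth was 0.33 and 0.34 at day 16 and -0.22 and 0.08 in 4T1 culture.

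Counted over the set in culture, 12 of 23 measured members stood at least 2-fold apart between 4T1.2 and 4T1, against 8.6% of the 10126 genes measured (3.62% higher and 4.98% lower). A member counted as measured with at least 5 CPM in either group, and ratios are log2 of CPM plus 5. Higher in 4T1.2 were Itgb7 (3.62 on the log2 scale), Itga8 (1.92), an alpha chain that binds RGD motifs, and Itgb3 (1.74), a beta chain of vitronectin and osteopontin receptors. Among those lower were Lamb3 (-4.29), Lama3 (-3.03), Itgb6 (-2.31), Itgb4 (-2.18), Itga2 (-1.61), Itgb5 (-1.32), Itgb1 (-1.27) and Itgax (-1.06). Itgb6, whose receptor activates latent TGF-beta, was 0.21 CPM in 4T1.2 culture against 20.8 CPM in 4T1 culture. Itga2, the alpha chain of the epithelial collagen receptor, was 47.9 against 12.3 CPM. The Itgax value rested on a single 4T1 well with 99.5% of the reads, and without it 4T1 culture held 0.0253 CPM. Itga8 was 2.53 CPM in 4T1 and 23.5 CPM in 4T1.2, and Itgb3 was 6.49 and 33.4 CPM. With TMM scaling Itga6 and Lama5 also stood 2-fold higher in 4T1.2, with 5 higher and 9 lower in all, and with DESeq2 size factors Lama5 did and Itgax did not. On the main scale their log2 ratios were 0.90 and 0.97. The members' median log2 ratio was -0.08 and that of all genes -0.01.

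In bone at day 4, 9 of 24 measured members were at least 2-fold apart between the lines, against 9.26% of 10424 genes (4.19% higher and 5.07% lower). Itgb4 (-3.10 on the log2 scale), Lamb3 (-2.51) and Lama3 (-2.14) were lower in 4T1.2, as were Itgb1 (-1.27) and Itga1 (-1.17), the alpha chain of a collagen receptor. Itgb7 (2.39 on the log2 scale), Itga4 (1.27) and Itgam, at 9.08 against 1.98 CPM, were higher. The last 2 are leukocyte chains, and Itgam was under 2-fold with TMM or DESeq2 scaling and without its richest well. Without mixed wells Itga4 was 2.8 against 1.26 CPM and Itgam 1.81 against 1.44 CPM, and both were then under 2-fold. Itga8 was 7.89 against 2.01 CPM and under 2-fold with all wells, and without mixed wells it was 15.2 against 2.18 CPM, over 2-fold higher in 4T1.2. The median well of 4T1.2 bone held 212 CPM of the leukocyte set and that of 4T1 bone 46.8 CPM, and their part in these levels was not tested. Itga2, 3.89-fold lower in 4T1.2 culture, was 61.1 against 72.3 CPM in bone.

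**Figure D4:**
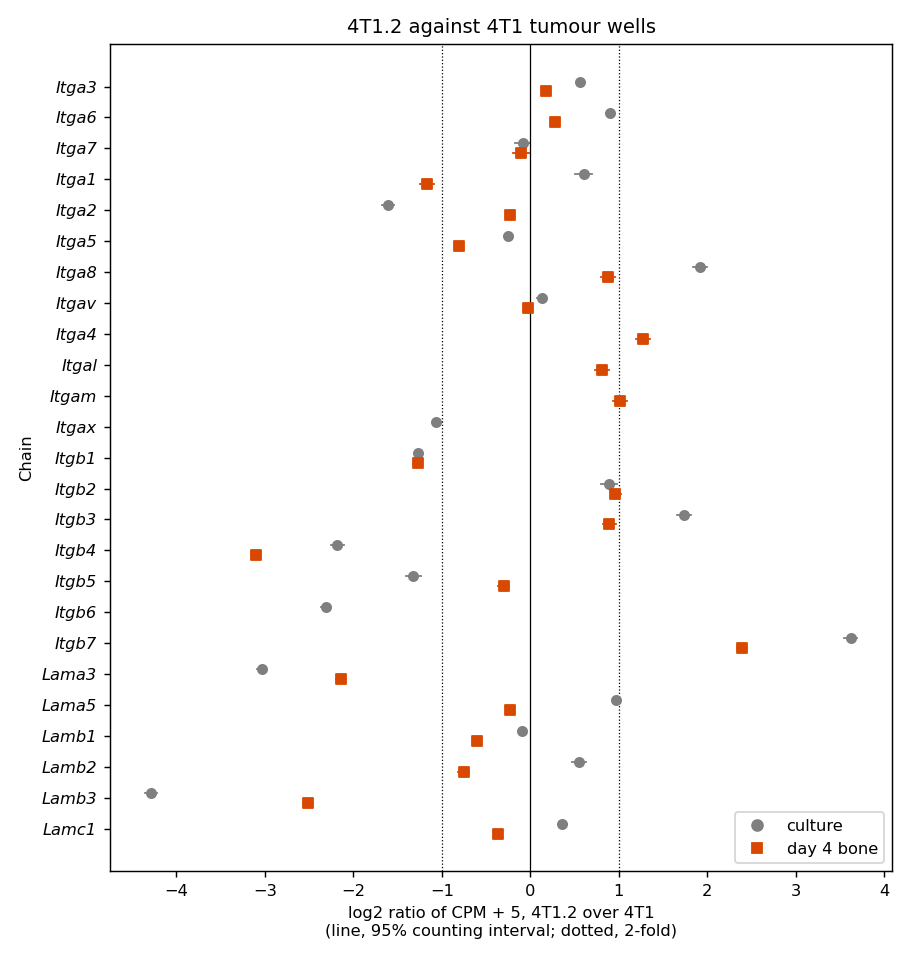
Log2 ratio of CPM + 5 in tumour wells of 4T1.2 over 4T1 for measured chains, in culture (circles) and in bone at day 4 (squares), with 95% counting intervals as lines and 2-fold as dotted lines. Itgb4, Lama3, Lamb3 and Itgb1 lie below and Itgb7 above 2-fold in both settings.

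Bone at day 4 was compared with culture in each line. In 4T1, 7 of 21 measured members were at least 2-fold apart, against 8.77% of 10234 genes (5.18% higher and 3.6% lower). Itgb4 was 2.94-fold and its partner Itga6 2.56-fold higher in bone. Itga6 stood at 55.7 CPM (54.5 to 56.8) in culture and 143 CPM (141 to 144) at day 4, with medians of 49.9 and 138 CPM over wells. Itga1 was 19.3 against 3.66 CPM, carried by 28.9% of wells at day 4 (21.4 to 37.3) and 18.9% in culture (9.44 to 32.0). Itgb2, the common beta chain of leukocytes, was 20.8 against 6.62 CPM. Without mixed wells it was 15.5 CPM in bone and under 2-fold. Itgb6 was lower in bone, at 1.77 against 20.8 CPM. Itgax was lower only through the single culture well named above, and its log2 ratio without that well was 0.02. With either scaling 4 members were higher and 1 lower.

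In 4T1.2, 10 of 23 measured members were at least 2-fold apart between bone and culture, against 9.32% of 10319 genes (6.17% higher and 3.15% lower). Itga2 was 61.1 CPM in bone and 12.3 in culture, with 80.4% of wells (66.1 to 90.6) against 45.3% (31.6 to 59.6). Lamb3 was 16.4 against 2.55 CPM and Itgb5, a beta chain of the vitronectin receptor, 19.1 against 6.5 CPM. Lower in bone were Itgb3, at 6.89 against 33.4 CPM, Itga8, at 7.89 against 23.5 CPM, and Itgb7, at 41.7 against 93.3 CPM. Itgb3 wells went from 69.8% in culture (55.7 to 81.7) to 23.9% in bone (12.6 to 38.8). The other 4 members were leukocyte chains, Itga4, Itgal, Itgam and Itgb2, which were higher in bone, and all 4 were under 2-fold without mixed wells. Itga4, for example, was 13.1 CPM with and 2.8 CPM without them. Itga8 and Itgb7 were also under 2-fold without mixed wells, at 15.2 and 46.0 CPM in bone, and Itgb4 was then over 2-fold higher in bone than in culture. Leaving out the well with most of their reads took Itga8, Itgb7, Itgal and Itgb5 under 2-fold.

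With all wells, Itgb2 was the only chain that passed 2-fold one way in both lines. Without mixed wells Itgb2 was under 2-fold in each, while Itgb4 was over 2-fold higher in bone in both. Itgb4 was then 174 CPM in bone and 57.1 in culture for 4T1, and 26.6 and 8.74 CPM for 4T1.2. With all wells, a single well held 38.3% of the Itgb4 reads of 4T1.2 bone. On the main scale with all wells, Itga6 was 1.28 higher in log2 in 4T1 and 0.66 in 4T1.2, and Itgb4 1.48 and 0.55. Itga2 was 0.55 in 4T1 and 1.93 in 4T1.2, and Lama5 0.60 and -0.61. Whether these steps differ between the lines was not tested, since each rests on 1 sample a group.

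Within 4T1 bone, day 10 and day 16 were each set against the same day 4 wells, so these 2 comparisons share their reference. At day 10, 6 of 21 measured members were at least 2-fold apart from day 4, against 7.37% of 10331 genes (4.64% higher and 2.73% lower). At day 16 it was 5 of 21, against 19.4% of 10523 genes (10.2% higher and 9.28% lower), a share close to that of all genes. Itga5, the alpha chain of the fibronectin receptor, was 137 CPM at day 4, 342 CPM at day 10 and 227 CPM at day 16. Its median well went from 116 CPM to 254 and 108 CPM, and at day 10 every well held at least 32.0 CPM. Itgb5 was 24.7 CPM at day 4, 48.1 at day 10 and 95.4 at day 16, and the share of wells holding it was 51.9% (43.1 to 60.5), 65.4% (50.9 to 78.0) and 81.2% (69.9 to 89.6). Lamb2, which replaces Lamb1 in some laminins, was 28.7 CPM at day 4 and 69.4 CPM at day 16. Lama3 was lower at day 10, and its log2 ratio of -1.25 was -0.86 without the day 4 well that held 30.5% of its reads.

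Low and leukocyte chains were also among those calls. Itgb3 was 1.4 CPM at day 4, 9.18 at day 10 and 9.27 at day 16, and each log2 ratio rounded to 1.00, just under 2-fold, without the single well richest in it. Itgb2 was 47.3 CPM at day 10 and 86.0 at day 16 and Itgb7 18.1 CPM at day 10. Without mixed wells Itgb2 at day 10 and Itgb7 at day 10 were under 2-fold from day 4, at 28.2 and 7.73 CPM, while Itgb2 at day 16 was 62.0 CPM and stayed over 2-fold. Itgb2 at day 10 was also under 2-fold without the well that held 20.2% of its reads. Itga3, Itgav, Itgb1, Lama5, Lamb1, Lamb3 and Lamc1 stayed within 2-fold of day 4 at both days.

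The fat pad tumour at day 22 was set against the same 4T1 culture as the day 4 bone wells. There 8 of 21 measured members were at least 2-fold apart, against 24% of 10503 genes (10.7% higher and 13.3% lower). Higher in the fat pad were Itga1, at 31.1 against 3.66 CPM, Itgb4, at 247 against 57.1 CPM, Lamb2, at 63.6 against 15.4 CPM, Itgb5, at 78.0 against 23.7 CPM, Lama5, at 353 against 151 CPM, and Itgb3, at 19.6 against 6.49 CPM. The Itgb3 ratio was under 2-fold without the well that held 23.2% of its reads. Itgb6, at 5.27 against 20.8 CPM, was lower, and Itgax again rested on 1 culture well. With TMM or DESeq2 scaling Lamc1 was also over 2-fold higher and Itgax was not apart, and 8 members were higher and 1 lower.

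Bone at day 16 was set against the fat pad. Of 22 measured members 2 were at least 2-fold apart, both higher in bone, a share near the 11.7% of 10590 genes (7.48% higher and 4.23% lower). The count was 5 with wells weighted equally and 6 with a pseudocount of 1 CPM. Itga5 was 227 CPM in bone and 69.3 CPM in the fat pad, with the median well at 108 and 26.1 CPM and the share of wells at 81.2% (69.9 to 89.6) and 59.5% (48.3 to 70.1). A single day 16 well held 36.5% of the Itga5 reads, and without it the level was 169 CPM. Itgb2 was 86.0 against 13.9 CPM, and 62.0 against 13.9 CPM without mixed wells. The median tumour well held 43 CPM of the leukocyte set at day 16 and 4.6 CPM in the fat pad, and the part of host RNA in the Itgb2 level was not tested. Itgb4, Lamb3 and Itga3 were 208, 110.0 and 416 CPM in bone and 247, 113 and 465 CPM in the fat pad.

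Genes that work with these chains were counted from lists. Of the hemidesmosome list outside the integrins, 2 of 5 measured genes were lower in 4T1.2 than in 4T1 culture and none higher, against 4.98% of all genes lower. Without the well highest in stromal and osteoblast markers in each group, 1 of 4 measured genes was lower. The list's median log2 ratio was then 0.18, against -0.33 with all wells. Krt14, a basal keratin, was 2.87 against 415 CPM, and in bone at day 4 it was 13.9 against 221 CPM, where 1 of 4 measured genes was lower against 5.07% of all genes. Plec, the linker between Itgb4 and keratin, was 763 CPM in 4T1 bone at day 4 and 256 in 4T1 culture. Of the adhesion complex list, 3 of 24 measured genes were lower in 4T1.2 culture than in 4T1 culture, beside the same 4.98% of all genes, and none higher. Fermt1, the epithelial kindlin that activates integrins, was 0.318 against 66.3 CPM. In the list of basement membrane partners, Npnt, a ligand of Itga8, was 98.9 CPM in 4T1 bone at day 4 and 20.2 in 4T1 culture, where 3 of 12 measured genes were higher, against 5.18% of all genes, and none lower.

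Ligands of integrins outside the laminins were counted in the same way. In 4T1.2 against 4T1 culture 7 of 11 measured ligands were lower and 1 higher, against 4.98% and 3.62% of all genes, with a median log2 ratio of -1.68 against -0.01 over all genes. Cdh1, the epithelial cadherin that also binds an integrin of T cells, was 1.56 against 257 CPM, and Thbs1, a matrix glycoprotein, 59.6 against 545.0 CPM. At day 16 against day 4 of 4T1 bone 8 of 15 measured ligands were higher, against 10.2% of all genes, and none lower. Fn1, the fibronectin that Itga5 binds, was 3060 against 400.0 CPM, and Spp1, the osteopontin bound by Itgav pairs, 23492 against 2329 CPM. The 6 stromal and osteoblast markers summed to 11 CPM in day 4 and 921.6 CPM in day 16 tumour wells, with the highest day 16 well at 59785.6 CPM, the median well at 6.27 CPM, 2 of 6 markers at 10 CPM and Bglap at 0. Without the well highest in these markers in each group, Fn1 was 3057 against 402 CPM and 7 of 14 measured ligands were higher. In fat pad wells Fn1 was 2650 CPM, against 315 CPM in those of the 4T1 culture.

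Host wells carried another set of chains. At day 4 of 4T1 bone 7 of 25 measured members were at least 2-fold higher in host than in tumour wells and 14 lower, against 36.5% of 11300 genes apart (19.6% higher and 17% lower). The counts were 7 and 14 of 25 at day 10, against 43.1% (18.5% and 24.6%), 7 and 13 of 25 at day 16, against 41.8% (17.9% and 23.9%), and 6 and 14 of 24 in 4T1.2 at day 4, against 36.6% (20.5% and 16.1%). Itga4, Itgal, Itgam, Itgax, Itgb2 and Itgb7 were higher in host wells in all 4. Itgb2 was 582 against 20.8 CPM at day 4 of 4T1, and 548 against 45.2 CPM in 4T1.2. Itgb7 in 4T1.2 was 96.6 CPM in host against 41.7 CPM in tumour wells, and under 2-fold without the well that held 9.68% of the host reads. Itga9 was higher in host wells at day 10 and 16, at 39.1 and 65.0 CPM.

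Over the 5 groups with host wells, Itgb2 stood at 582, 1055 and 849 CPM in 4T1 bone at day 4, 10 and 16, at 586 CPM in the fat pad and at 548 CPM in 4T1.2 bone. Itga4, which pairs with Itgb1 or Itgb7, stood at 115, 64.6 and 66.0 CPM in 4T1 bone, 6.22 CPM in the fat pad and 144 CPM in 4T1.2 bone. Itgax, a chain of dendritic cells and macrophages, ran the other way, at 9.51, 87.4, 64.3, 146 and 13.9 CPM in the same order. All 10 host wells of the fat pad fell into the macrophage-like cluster 1, which also held 12 of the 359 host wells of day 4. The part of the mix of host cells in these levels was not tested.

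The laminin chains were low in host wells. Only Lama5 and Lamc1 reached 10 CPM in the host sum of any group, with Lamc1 at 25.2 CPM in the 10 host wells of the fat pad and Lama5 at 15.8 CPM in 4T1.2 bone. Without mixed wells, Lama5 in the host wells of 4T1.2 bone was 1.65 CPM and Lamc1 was 14.8 CPM. Of the integrins that tumour wells shared with host wells, Itga5 was 150 CPM in host and 227 CPM in tumour wells at day 16, Itgav 96.1 and 72.0 CPM, and Itgb5 99.5 and 95.4 CPM. None of these 3 was 2-fold apart there. Itga5 was over 2-fold lower in host wells at day 10 (-1.69 on the log2 scale) and in 4T1.2 bone (-1.33). Itgav was so at day 4 of 4T1 (-1.65) and in 4T1.2 bone (-1.14). In the remaining bone groups these chains were under 2-fold apart, as was Itgb5 in every bone group.

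Host wells were clustered without the 37 members, and 13 of 16 clusters could be named from fixed markers by a rule settled after the clusters were seen. Itgb2 was highest in the 3 neutrophil-like clusters, at 1550, 1281 and 1653 CPM, with Itgam, its partner in the complement receptor, at 389, 304 and 258 CPM. In the T and NK-like cluster of 14 wells Itgal, the partner in the lymphocyte receptor for Icam1, was 483 CPM, beside Itgb1 at 783, Itga4 at 310 and Itgb7 at 397 CPM. Itgb7 was also high in the dendritic and plasmacytoid-like cluster of 19 wells, at 500 CPM, in the monocyte-like cluster 12, at 410 CPM, and in cluster 5, at 421 CPM. Cluster 5 has no name, since its leading genes hold the myeloid precursor genes Mpo, Elane, Prtn3 and Ctsg beside the dendritic genes Il12b, Ccr7, Fscn1 and Cd209a. Itgb7 was 1.31 CPM in neutrophil-like cluster 6. The macrophage-like cluster 1, led by C1q genes, held Itga9 at 99.9, Itgax at 129, Itgb5 at 179, Itgav at 147 and Itga5 at 238 CPM. Itga9 was at or under 3 CPM in each other cluster.

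Some chains under 10 CPM in every group passed 10 CPM in a cluster of host wells. Itgad, a leukocyte alpha chain, was 58.4 CPM in the dendritic and plasmacytoid-like cluster, where Itgb3 was 82.6 CPM. Itga2b, the platelet alpha chain that pairs with Itgb3, was 42.6 CPM in the erythroid-like cluster of 27 wells, where Itgb3 was 1.54 CPM and Itga4, the receptor chain of erythroid islands, 215 CPM. Of those 27 wells 14 were mixed. Itga2b was not confined to that cluster, which held 2 wells of 4T1.2 bone. In that group 11 host wells held at least 10 CPM of Itga2b. Over host wells of 4T1 day 4, Spearman's correlation of Itga2b with Itgb3 was -0.03, while that of Itgam with Itgb2 was 0.70 and that of Itgal with Itgb2 0.58, over 359 wells. Cluster 13, with 18 of 21 wells mixed and led by collagen and cartilage genes, had no name and carried the tumour-type chains Itga3 at 306, Itga6 at 222 and Lama5 at 159 CPM.

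**Figure D5:**
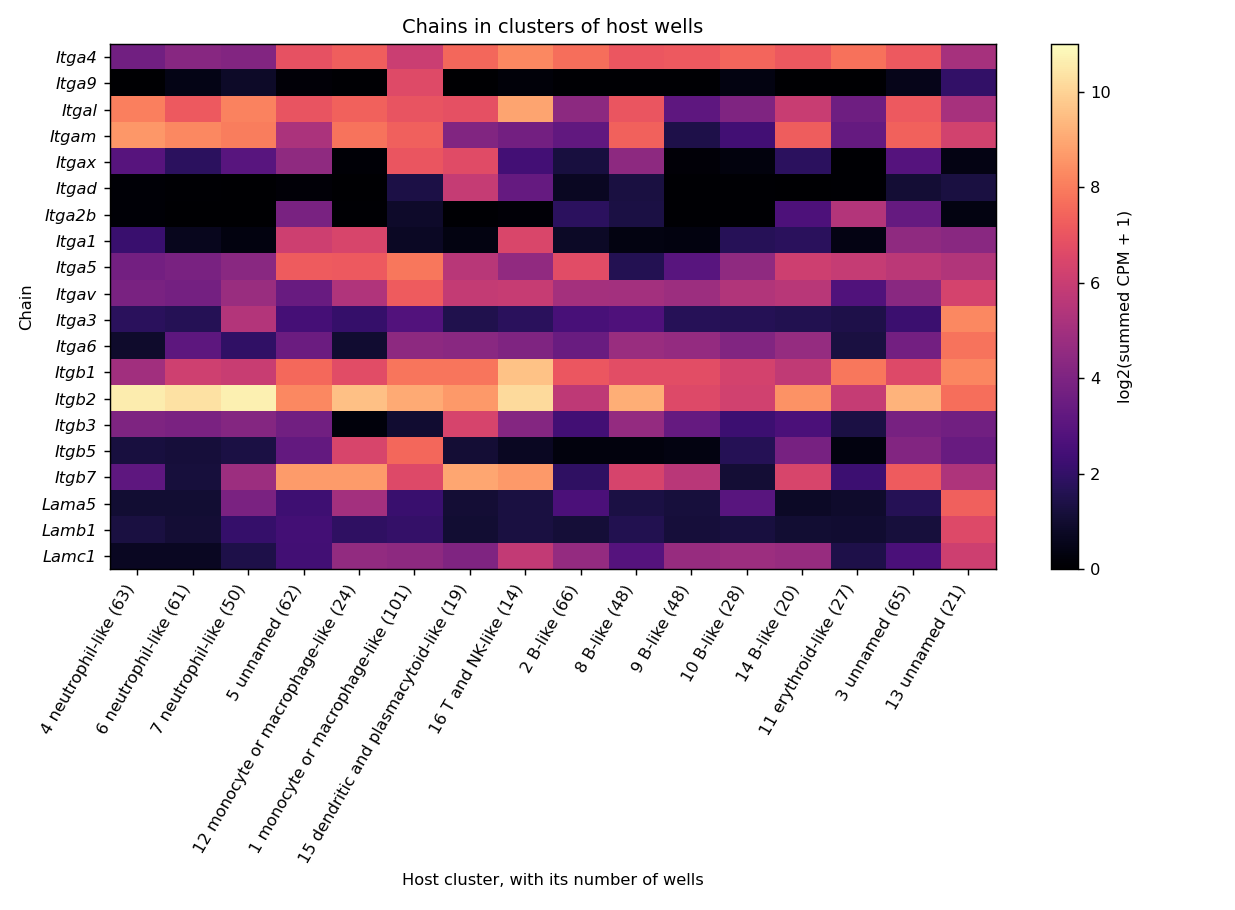
Summed level of 20 chains, as log2 of CPM + 1 on a colour scale, in the 16 clusters of host wells, with the number of wells in brackets. Itgb2 is highest in the neutrophil-like clusters 4, 6 and 7, Itgb7 is high in clusters 5, 12, 15 and 16, and Itga9 is seen in cluster 1.

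The remaining members were low. Those under 10 CPM in every group were Itga10 (highest 5.08 CPM), Itga11 (0.448), Itga2b (6.09), Itgad (3.13), Itgae (1.28), Itgb8 (1.66), Lama1 (0.478), Lama2 (0.539), Lama4 (1.76) and Lamc3 (1.07). Itga7, a laminin-binding alpha chain known from muscle, was measured in tumour wells, from 2.57 CPM at day 16 to 16.7 CPM in 4T1 culture, in 7.25% (2.39 to 16.1) and 43.4% of wells (29.8 to 57.7). Exons of 12 members overlap another gene in GENCODE M21. Itgam shares 3450 bases with Gm49368 on its own strand, and Itgb4 and Lama3 share 537 and 197 bases with genes on the other strand. No source used here states whether the counting used strand, so reads in those stretches cannot be assigned to 1 gene.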

How the data were processed

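Whole single cells were sequenced by Smart-seq2, which has no molecular identifiers. The deposited table holds raw read counts per gene and cell, made by the authors; the submitters' processing notes name STAR 2.6.0c, featureCounts 1.6.2, Trim Galore 0.6.6, SAMtools 1.7 and build mm10, without order or settings. Of 40840 table lines, 78 spike-ins, 2 reporters and 4 repeated symbols (0.67%, 0.187% and 0.0149% of counts) were left out.

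Wells needed 1000 genes, 50000 counts and at most 25% mitochondrial counts, and 30 failed. Counts were summed over the tumour or host wells of a group and divided by all gene counts of those wells. Intervals are exact Poisson for CPM and exact binomial (Clopper-Pearson) for shares, at 95%, and cover counting error only. Ratios are log2 of CPM plus 5. Genes with 5 CPM in either sum were measured and called at 2-fold. Shares of wells used 10 CPM after thinning to 500000 counts, and shallower wells were left out (at most 2 tumour wells a group).

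Members that reached 10 CPM anywhere or were 2-fold apart in a comparison are named with values, and 1 is not reported here. From each related list, up to 6 members 2-fold apart with 20 CPM in the higher group could be named. The members and lists were chosen with earlier results of these data known. Host wells were clustered without the members (scanpy 1.11.5, 2000 variable genes, 20 components, 15 neighbours, leidenalg 0.10.2 at resolution 1), and a name needed 3 markers with a median of 50 CPM and 2-fold over other host wells. Alternatives used edgeR 4.0.16 TMM and DESeq2 1.42.0 size factors for scaling only, in R 4.3.3, other pseudocounts and filters, equal weight per well and no mixed wells. The scripts were tested on simulated data.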

Additional observations from a re-analysis of the deposited data

How the results depend on the processing

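Each group is 1 sample, so the spread between animals or cultures is unknown, and host RNA in tumour wells limits the leukocyte chains. Of 141 ratios of single members at least 2-fold apart, 135 stayed so with TMM scaling, 134 with DESeq2 size factors, 114 with a pseudocount of 10 CPM, 110 with a minimum of 20 CPM and 128 without mixed wells. Leaving out the deepest well (137 kept) or the well with most reads of a member (119 kept) was chosen after seeing the data. So was leaving out the well highest in stromal markers for the related lists. The 1410 values of single members under the other alternatives held no change of direction, but 673 of them lay outside the counting interval of the main ratio. Without its richest well, the log2 ratio of Itgax in the fat pad against 4T1 culture turned from negative to 0.05 and that in 4T1 bone at day 4 against 4T1 culture to 0.02, since that well held 99.5% of the culture reads.

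Of 120 counts of members apart under the alternatives, 8 moved by more than 1.5 times. In 4T1.2 bone against culture the count of 10 became 5 with a pseudocount of 10 CPM, 5 with a minimum of 20 CPM and 5 without mixed wells. At day 10 against day 4 the count of 6 became 3 with that pseudocount and 3 with that minimum. At day 16 against the fat pad the count of 2 became 5 with wells weighted equally and 6 with a pseudocount of 1 CPM. In bone at day 4, 4T1.2 against 4T1, the count of 9 became 5 with the minimum of 20 CPM. A higher pseudocount shrinks ratios of low genes and a higher minimum leaves them out, by construction, and the cause of the other moves was not tested. Scaling moved the median log2 ratio of all genes most in host against tumour wells at day 10, from -0.26 to 0.10 with DESeq2 size factors. No paired analysis was possible because the numbers in the labels only name cells of a group and no test was run.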
